A study of Mus musculus with 15 samples.

Results

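The Runx3 line of mouse NIH3T3 fibroblasts was set directly against the Runx2 line, with no vector array in the difference. Members were chosen by title: the 2 arrays named for murine Runx3 and the 2 named for murine Runx2, which are 4 of the 15 Affymetrix arrays in the series. NIH3T3 is an immortalised line of mouse embryo fibroblasts. The Runx3 line had been transduced with the retrovirus pBabe-puro carrying a constitutive construct of mouse Runx3, and the Runx2 line with the same vector carrying a constitutive construct of mouse Runx2. In vectors of this kind the retroviral long terminal repeat drives the inserted gene. The other 11 arrays covered mouse Runx1 (2), human RUNX1 (1), a tamoxifen-inducible human RUNX1-ER without (2) and with induction (2), and the empty vector without (2) and with (2) tamoxifen, and they entered only the estimate of the spread. Every line shared the parental cells, the vector backbone and 7 days of growth to confluence. The labels give ethanol at 0.2%, alone or with 4-hydroxytamoxifen, for 24 h before RNA was taken, and do not say which of these each constitutive line had. The titles call replicates 1 and 2 biological. They do not say whether these were separate cultures or transductions, or whether a line was a clone or a pool, and the p-values measure the spread between these arrays.

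Runx proteins are transcription factors that bind DNA through a conserved Runt domain, together with the partner subunit Cbfb, at sites whose core reads TGTGGT. They activate or repress a gene depending on the cofactors they recruit, among them the corepressors of the Tle family. Runx2 is known as the master regulator of bone formation, and Runx3 for its part in cytotoxic T cells, sensory neurons and the stomach epithelium. Fibroblasts such as NIH3T3 make collagens and other extracellular matrix, and carry the enzymes for making cholesterol and prostaglandins.

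Levels are the authors' log2 RMA values, in which a unit is a doubling of the signal, and each gene is represented by its brightest probe set. A difference is the mean of the Runx3 arrays minus the mean of the Runx2 arrays, so that a positive value means higher in the Runx3 line. A gene was called at an adjusted p under 0.05 in limma over 18193 genes. The medians of the 15 arrays lay between 3.69 and 3.75. The 2 Runx3 arrays correlated at 0.9954 with each other, the 2 Runx2 arrays at 0.9943, and arrays of different lines at 0.9919 to 0.9935. Runx2 replicate 2 correlated as closely with an induced RUNX1-ER array (0.9945) as with its own replicate, so each call was also examined without it. A call is described as holding without any 1 array where it was made in all 4 fits that each left out 1 of the 4 arrays.

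The lines differed at 684 genes, or 3.76% of those tested. Of these, 337 (1.85% of genes) were higher in the Runx3 line and 347 (1.91%) were lower. The Runx3 and Runx2 arrays did not overlap at any of the 684, and they did not overlap at 7672 of all 18193 genes. At least a 2-fold difference was seen at 64 called genes, 35 higher and 29 lower, and at least a 4-fold difference at 5. The 5 were Timp4, Anxa8, Ccr7 and the clone 2610528A11Rik, all higher, and Hp, which was lower. 2610528A11Rik, outside the rule for named genes and given here after its values were seen, was at 9.10 and 8.80 in the Runx3 arrays and at 6.48 and 6.30 in the Runx2 arrays. The median difference over all genes was 0.01. The number of calls rested on single arrays: it was 332 without Runx3 replicate 1, 251 without Runx3 replicate 2, 305 without Runx2 replicate 1 and 448 without Runx2 replicate 2. Calls that held without any 1 array numbered 166, 73 higher and 93 lower, and included 57 of the 64 at 2-fold. With only the 4 arrays in the fit, 86 genes were called, 52 of them at least 2-fold. Calls that held without any 1 array could be lost there, among them those of Adamts5, Tgfbr3, Cdkn2d, Trib3, Zfp521 and Plpp1.

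**Figure D1:**
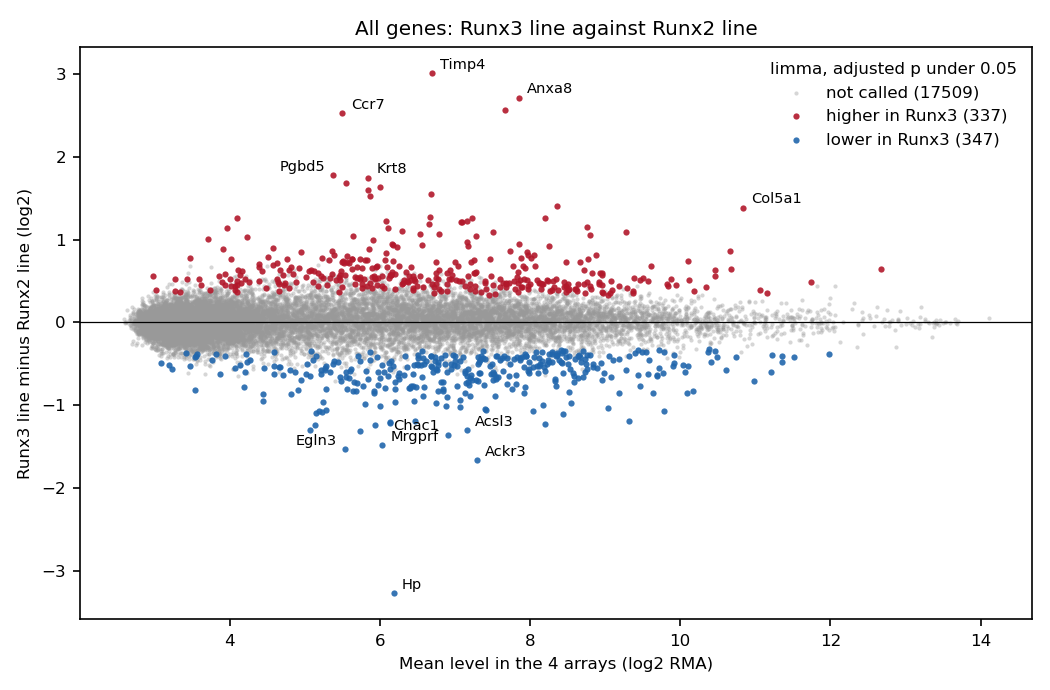
Difference between the lines (Runx3 minus Runx2, log2) against the mean level in the 4 arrays (log2 RMA) for 18193 genes. The 337 genes called higher are red and the 347 called lower are blue. Timp4 (3.01), Anxa8 (2.71) and Ccr7 (2.53) lie farthest above 0 among the labelled genes, and Hp (−3.27) farthest below.

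Leaving out clone names, the genes with the largest rises in the Runx3 line over the Runx2 line encode a protease inhibitor, an annexin and a chemokine receptor. Timp4, an inhibitor of matrix metalloproteinases, was at 8.32 and 8.08 in the Runx3 arrays and at 5.24 and 5.14 in the Runx2 arrays, a difference of 3.01 or 8.07-fold (SE 0.15, adjusted p = 9.98e-07). Its other probe set gave a difference of 4.54. Anxa8, a phospholipid-binding annexin, was at 9.15 and 9.26 in the Runx3 arrays and at 6.55 and 6.44 in the Runx2 arrays (difference 2.71, SE 0.18, adjusted p = 6.62e-06). Its other probe set gave 2.72. Ccr7, the receptor that leads T cells and dendritic cells to lymph nodes, was at 6.81 and 6.71 in the Runx3 arrays and at 4.43 and 4.04 in the Runx2 arrays (difference 2.53, SE 0.13, adjusted p = 9.98e-07). For these 3 genes the Runx2 arrays lay above the vector arrays by less than the Runx3 arrays did: vector means were 4.67 for Timp4, 5.43 for Anxa8 and 3.40 for Ccr7.

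Pgbd5, derived from a piggyBac transposase, was at 6.22 and 6.32 in the Runx3 arrays and at 4.46 and 4.52 in the Runx2 arrays (difference 1.78, SE 0.14, adjusted p = 2.75e-05). Krt8, a keratin of simple epithelia, was at 6.50 and 6.94 in the Runx3 arrays and at 4.94 and 5.00 in the Runx2 arrays (difference 1.75, SE 0.20, adjusted p = 0.000324), and its other probe sets gave 1.71 and 1.23. The Runx3 arrays stood clear of the Runx2 arrays at both genes, as they did at all 684 called genes. Dclk1, a microtubule-associated kinase, differed by 1.69 (SE 0.10), with 2 of its 8 other probe sets called in the same direction. Slc40a1, the iron exporter ferroportin, was at 7.00 and 6.65 in the Runx3 arrays and at 4.99 and 5.39 in the Runx2 arrays (difference 1.63, SE 0.18, adjusted p = 0.000254). Agt, which encodes angiotensinogen, was at 6.62 and 6.66 in the Runx3 arrays and at 5.05 and 5.02 in the Runx2 arrays (difference 1.60, SE 0.18, adjusted p = 0.000279). The remaining rises among the 15 largest were Ccn4, Fzd7, Mgp, Col5a1, the kinase gene Cdk18, the pantetheinase gene Vnn1 and Snai1, with differences of 1.26 to 1.55. The Wnt receptor gene Fzd7 differed by 1.52 at its brightest probe set and by 0.06, not called, at its other, dim one. All 15 calls held without any 1 array.

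Among genes with a symbol the largest fall was at Hp, which encodes haptoglobin, the acute-phase protein that binds free haemoglobin. Hp was at 4.96 and 4.13 in the Runx3 arrays and at 7.91 and 7.72 in the Runx2 arrays, a difference of −3.27 (SE 0.22, adjusted p = 6.92e-06). Its Runx3 levels were near the low end of the arrays, so no exact fold is given. Its mean was 4.10 in Runx1 arrays and 3.91 in vector arrays, both below the Runx2 arrays. Ackr3, an atypical receptor that scavenges the chemokine CXCL12, was at 6.49 and 6.42 in the Runx3 arrays and at 8.17 and 8.08 in the Runx2 arrays (difference −1.67, SE 0.12, adjusted p = 1.28e-05). At this gene the vector mean was higher still, at 9.30. Egln3, a prolyl hydroxylase that acts on hypoxia-inducible factors, was at 4.96 and 4.58 in the Runx3 arrays and at 6.48 and 6.13 in the Runx2 arrays (difference −1.54, SE 0.18, adjusted p = 0.00037). The other probe set of Egln3 gave −0.50 and was not called. Mrgprf, an orphan receptor, was at 5.21 and 5.36 in the Runx3 arrays and at 6.89 and 6.64 in the Runx2 arrays (difference −1.48, SE 0.13, adjusted p = 7.02e-05). The Runx3 arrays were below both Runx2 arrays at each of these genes, as at every gene called lower.

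Acsl3, which activates long-chain fatty acids, was at 6.60 and 6.41 in the Runx3 arrays and at 7.74 and 7.88 in the Runx2 arrays (difference −1.30, SE 0.09, adjusted p = 1.28e-05). Msln, the cell-surface protein mesothelin, was at 5.83 and 5.92 in the Runx3 arrays and at 7.06 and 7.07 in the Runx2 arrays (difference −1.19, SE 0.09, adjusted p = 2.16e-05). Ifi27l2a, an interferon-inducible gene, differed by −1.23 (SE 0.10), although no member of the list of interferon-stimulated genes was called. The other large falls were at the deubiquitinase gene Usp17la, Gkap1, the carboxypeptidase gene Cpq, Pde4b, Tm7sf2 and the serine protease gene Prss23, with differences of −1.30 to −1.19. These calls held without any 1 array. Chac1 and Ptgs2 completed the 15 and did not hold: Chac1 (difference −1.36) had an adjusted p of 0.061 without Runx3 replicate 1, and Ptgs2 (difference −1.31) had 0.0905 without Runx3 replicate 2 and also lost the call without Runx2 replicate 2.

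**Figure D2:**
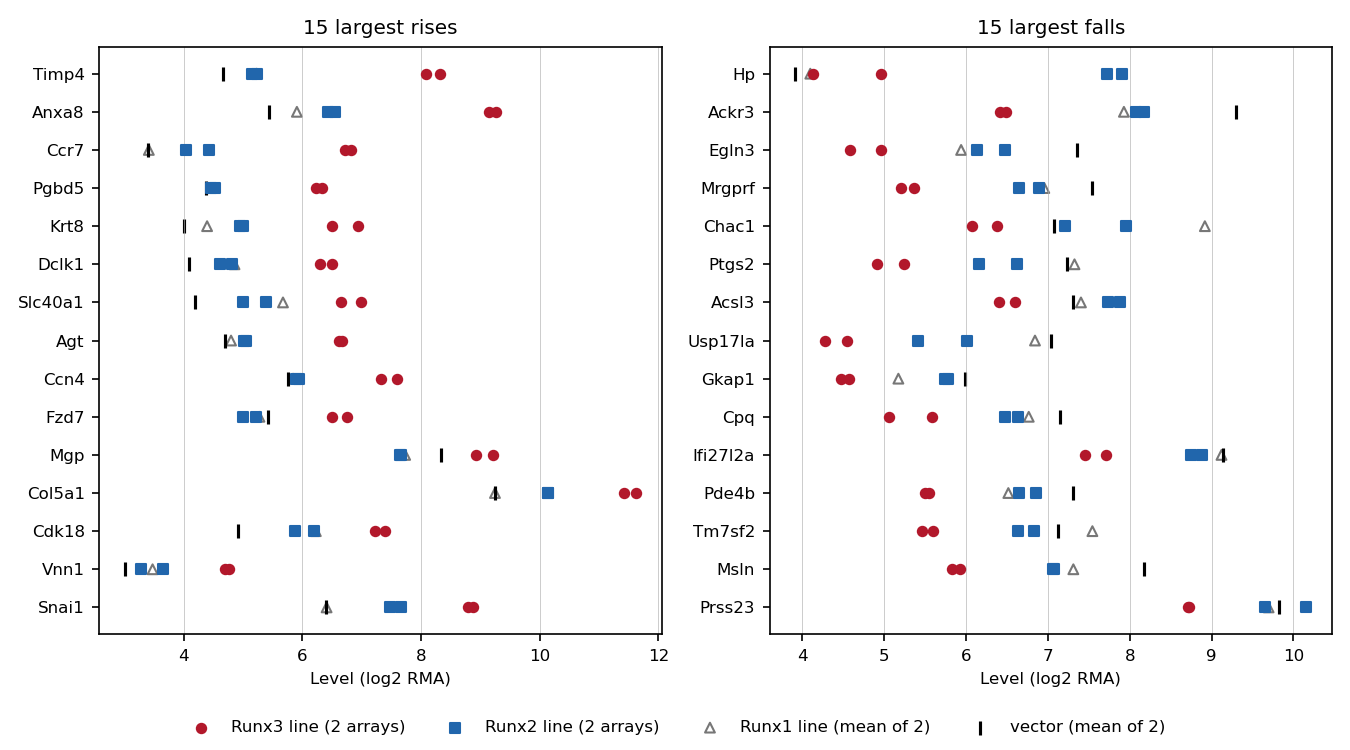
Level (log2 RMA) in each array for the 15 largest rises (left) and the 15 largest falls (right) of the Runx3 line against the Runx2 line. Red circles are the 2 Runx3 arrays, blue squares the 2 Runx2 arrays, triangles the mean of 2 Runx1 arrays and bars the mean of 2 vector arrays. At Hp the Runx3 arrays (4.96 and 4.13) lie near the vector mean (3.91), and at Ackr3 (6.49 and 6.42) both lines lie below it (9.30).

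Promoter windows of 250 bases before the RefSeq start, build GRCm38.p6, were searched on both strands for the core TGTGGT, whose reverse complement is ACCACA. Of 14452 measured genes with a window, 13.7% held it, against 12.9% of the genes higher in the Runx3 line (36 of 279) and 11.5% of the lower ones (32 of 278). It was in 11.7% of the 18109 windows of these genes, which can have several, and in 14% of all 32851 windows of the RefSeq table. Among the largest changes it was found for 3 of 10 rises with a window (Anxa8, Cdk18 and Dclk1). Of the falls 5 of 9 held it (Ackr3, Ptgs2, Pde4b, Usp17la and Prss23). Counted by window it was in 3 of 11 (27.3%) for the rises and 5 of 18 (27.8%) for the falls. A match is a description of the letters and not a bound site. The windows of Anxa8, the largest rise to hold the core, and of 2 of the falls are printed 5′ to 3′ on the strand of the gene, with the core in capitals. That of Anxa8 is chr14:34085729-34085978 on the plus strand with the core at −15 from the start, that of Ackr3 is chr1:90203730-90203979 on the plus strand with the core at −84, and that of Ptgs2 is chr1:150099781-150100030 on the plus strand with the core at −197.
Anxa8: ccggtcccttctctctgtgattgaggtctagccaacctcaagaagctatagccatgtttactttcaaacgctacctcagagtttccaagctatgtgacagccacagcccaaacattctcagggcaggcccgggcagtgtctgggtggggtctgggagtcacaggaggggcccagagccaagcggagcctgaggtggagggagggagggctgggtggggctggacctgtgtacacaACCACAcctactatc
Ackr3: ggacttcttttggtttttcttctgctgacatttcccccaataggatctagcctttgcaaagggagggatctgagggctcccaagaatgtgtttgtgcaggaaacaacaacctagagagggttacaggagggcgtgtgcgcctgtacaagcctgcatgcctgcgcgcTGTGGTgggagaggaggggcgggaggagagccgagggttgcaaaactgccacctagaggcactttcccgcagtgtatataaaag
Ptgs2: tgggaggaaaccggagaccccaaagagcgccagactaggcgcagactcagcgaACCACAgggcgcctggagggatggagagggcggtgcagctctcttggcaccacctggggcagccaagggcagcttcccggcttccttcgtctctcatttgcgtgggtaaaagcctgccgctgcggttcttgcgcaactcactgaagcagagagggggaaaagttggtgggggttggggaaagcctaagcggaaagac
The core stands in either orientation in these windows, TGTGGT at Ackr3 and ACCACA at Anxa8 and Ptgs2, so a gene that was higher and a gene that was lower in the Runx3 line carry the same letters.

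Of 12 measured Runx genes and partners, Tle5 was called lower and none was called higher at the brightest probe set. Over all genes 1.91% were lower and 1.85% higher. Runx3 itself was at 4.46 and 3.96 in the Runx3 arrays and at 4.41 and 4.10 in the Runx2 arrays (difference −0.05, 95% interval −0.37 to 0.27, adjusted p = 0.928), and its other probe set was not called either. No higher level in the line that carries the construct was seen at these probe sets. Whether those probes lie within the construct is not given in the sources used here. Runx2 was not analysed here by name. Runx1 was at 4.54 and 4.45 in the Runx3 arrays and at 4.49 and 4.75 in the Runx2 arrays (difference −0.12, adjusted p = 0.717), against a mean of 9.21 in the Runx1 line. A dimmer probe set of Runx1 was called lower in the Runx3 line (means 3.87 and 4.54, difference −0.68, adjusted p over all probe sets 0.0175). Cbfb, the partner subunit, was at 9.59 and 9.52 in the Runx3 arrays and at 9.52 and 9.48 in the Runx2 arrays (difference 0.05, 95% interval −0.13 to 0.24). Among the Tle genes, Tle5 was lower (difference −0.42, adjusted p = 0.0232), a call lost in every fit that left out 1 array. Tle1, Tle2, Tle3, Tle4, Tle6, Cbfa2t2, Cbfa2t3 and Runx1t1 were not called, with differences of −0.24 to 0.14.

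Against the Runx2 line, cholesterol synthesis genes were lower in Runx3 cells at most steps of the pathway. Of 21 measured members 16 were lower and none higher, against 1.91% and 1.85% of all genes, and the median difference was −0.63 against 0.01 over all genes. The early enzymes, which build the isoprenoid units, included Pmvk, phosphomevalonate kinase, at 6.04 and 6.08 in the Runx3 arrays and 6.81 and 6.86 in the Runx2 arrays (difference −0.77, SE 0.10, adjusted p = 0.000617). Fdps, farnesyl diphosphate synthase, was at 10.69 and 10.57 in the Runx3 arrays and 11.42 and 11.26 in the Runx2 arrays (difference −0.71, SE 0.10, adjusted p = 0.00188). Mvd and Idi1 of the same stretch differed by −0.64 and −0.66, and Hmgcs1, the synthase at its start, by −0.42. Squalene is made by Fdft1 and oxidised by Sqle, and these differed by −0.63 and −0.57. The ring-closing Lss differed by −0.48.

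Later enzymes act on the sterol itself. Tm7sf2, a sterol reductase, was at 5.46 and 5.59 in the Runx3 arrays and 6.63 and 6.83 in the Runx2 arrays (difference −1.20, SE 0.11, adjusted p = 8.67e-05). Msmo1, a methylsterol oxidase, was at 9.59 and 9.74 in the Runx3 arrays and 10.44 and 10.60 in the Runx2 arrays (difference −0.86, SE 0.10, adjusted p = 0.000364). Nsdhl, a sterol dehydrogenase, was at 9.06 and 9.09 in the Runx3 arrays and 9.89 and 9.82 in the Runx2 arrays (difference −0.78, SE 0.09, adjusted p = 0.000547). Vector means were 7.12 for Tm7sf2, 10.56 for Msmo1 and 9.88 for Nsdhl. At all 16 lower genes both Runx3 arrays lay below both vector arrays, while the Runx2 mean minus the vector mean was −0.39 to 0.27. These genes were picked as lower than the Runx2 arrays, so the vector count is not independent of the calls. The same share over all genes is not given here. Cyp51 and Dhcr7 both differed by −0.65 and Sc5d by −0.51. Insig1, an endoplasmic reticulum protein that holds back the sterol-regulated factors Srebf1 and Srebf2 when sterol is plentiful, was at 8.0 and 8.20 in the Runx3 arrays and 8.91 and 8.98 in the Runx2 arrays (difference −0.84, SE 0.09, adjusted p = 0.000302). Stard4, a sterol carrier, differed by −0.63.

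The 5 members not called were Mvk (difference −0.32, adjusted p = 0.0712), Srebf2 (−0.16), Ggps1 (−0.01), Hsd17b7 (0.00) and Ebp (0.31, adjusted p = 0.0508). Leaving out 1 array left 13 or 14 of the members lower, and 12 were called in all 4 such fits. Dhcr7 lost its call without Runx3 replicate 2 (adjusted p = 0.0768), Lss without Runx3 replicate 1 (0.072), and Sc5d and Hmgcs1 in each of the 4 fits (highest adjusted p 0.177 and 0.106). With only the 4 arrays in the fit 3 of the 16 were called. Fdps was not called when all its probe sets were averaged.

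**Figure D3:**
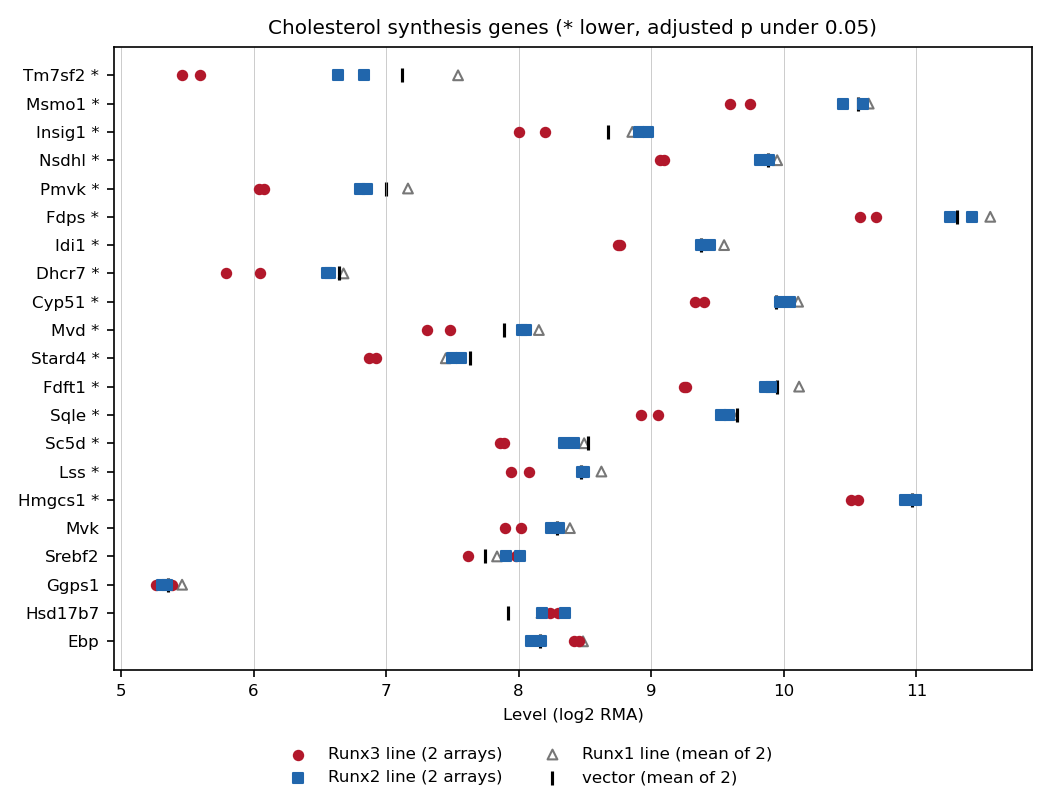
Level (log2 RMA) of the 21 measured cholesterol synthesis genes in each Runx3 array (red circles) and each Runx2 array (blue squares), with the means of 2 Runx1 arrays (triangles) and 2 vector arrays (bars). An asterisk marks the 16 genes called lower in the Runx3 line. At these the Runx3 arrays stand left of the 2 Runx2 arrays, as at every gene called lower.

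The promoters of these genes were searched for letters that their regulators are known to use: CCAAT (reverse complement ATTGG), the site of the factor NF-Y, and TCACNCCAC (reverse complement GTGGNGTGA), a form of the sterol regulatory element. The last can share bases with the RUNX core ACCACA where N is A. CCAAT or ATTGG stood in the windows of all 17 cholesterol genes that had one, 12 of them called lower, and in 39.4% of measured genes. It was in 33.8% of all 32851 windows, and the sterol form in 1.05%. The sterol element in this form was in 1 of the 17, Hmgcs1, and in 1.27% of measured genes. The windows of Hmgcs1 and of 3 members with large differences are shown with these letters in capitals. That of Hmgcs1 is chr13:119690101-119690350 on the plus strand, that of Insig1 is chr5:28071162-28071411 on the plus strand, that of Tm7sf2 is chr19:6067851-6068100 on the minus strand, and that of Nsdhl is chrX:72918271-72918520 on the plus strand.
Hmgcs1: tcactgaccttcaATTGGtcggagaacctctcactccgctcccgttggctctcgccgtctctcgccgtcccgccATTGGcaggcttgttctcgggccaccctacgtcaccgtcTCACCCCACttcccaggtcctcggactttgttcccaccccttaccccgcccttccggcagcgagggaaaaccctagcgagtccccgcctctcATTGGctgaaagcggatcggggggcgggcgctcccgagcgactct
Insig1: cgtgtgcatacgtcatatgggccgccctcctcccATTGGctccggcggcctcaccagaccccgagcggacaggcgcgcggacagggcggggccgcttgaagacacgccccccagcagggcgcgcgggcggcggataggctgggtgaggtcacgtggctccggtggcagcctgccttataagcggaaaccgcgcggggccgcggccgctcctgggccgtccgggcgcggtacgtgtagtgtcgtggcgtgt
Tm7sf2: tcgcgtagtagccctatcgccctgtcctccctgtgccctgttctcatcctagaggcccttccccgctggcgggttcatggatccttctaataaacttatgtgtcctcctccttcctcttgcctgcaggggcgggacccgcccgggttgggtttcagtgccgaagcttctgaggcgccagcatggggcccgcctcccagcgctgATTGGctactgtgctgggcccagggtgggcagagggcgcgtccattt
Nsdhl: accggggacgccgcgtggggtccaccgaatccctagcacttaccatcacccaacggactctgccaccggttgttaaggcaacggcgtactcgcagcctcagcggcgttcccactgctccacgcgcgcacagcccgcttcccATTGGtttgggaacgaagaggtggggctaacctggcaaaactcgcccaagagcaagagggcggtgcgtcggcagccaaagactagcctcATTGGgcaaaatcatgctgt
The members called lower and those not called carried the CCAAT letters alike, so these letters do not separate them.

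Fatty acid genes, which share the sterol-regulated factors, differed at fewer members. Of 20 measured, 2 were lower and none higher, against 1.91% and 1.85% of all genes, with a median of −0.15. Besides Acsl3, Acly, which makes cytosolic acetyl-CoA, was at 9.62 and 9.72 in the Runx3 arrays and 10.17 and 10.15 in the Runx2 arrays (difference −0.49, adjusted p = 0.00995), a call lost without Runx3 replicate 1 (adjusted p = 0.0796) and without Runx2 replicate 1. The desaturases Scd1 (−0.30, adjusted p = 0.0921) and Scd2 (−0.16, adjusted p = 0.394) were not called.

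Among collagens the lines differed in both directions. Called chains of types V, VI and XVIII were higher in the Runx3 line, and the basement membrane pair Col4a1 and Col4a2 was lower. Of 29 measured chains 7 were higher and 4 lower, against 1.85% and 1.91% of all genes, with a median difference of 0.06. Col5a1, a chain that sets the width of collagen fibrils, was at 11.42 and 11.63 in the Runx3 arrays and 10.14 and 10.14 in the Runx2 arrays (difference 1.39, SE 0.12, adjusted p = 4.53e-05), and its other probe sets gave 1.75 and 1.52. Col18a1, whose C-terminal fragment is endostatin, was at 7.26 and 7.24 in the Runx3 arrays and 5.90 and 6.23 in the Runx2 arrays (difference 1.19, SE 0.12, adjusted p = 0.000171). Col6a2, a chain of the beaded filaments, was at 10.74 and 10.81 in the Runx3 arrays and 10.15 and 10.14 in the Runx2 arrays (difference 0.63, SE 0.10, adjusted p = 0.00386). These 3 calls held without any 1 array. Col4a6 (1.04), Col6a1 (0.56), Col5a2 (0.39) and Col4a5 (0.36) were also higher, so type IV chains went both ways. Another type VI chain, Col6a3, differed by −0.36 and was not called (adjusted p = 0.311).

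Col4a2 was at 6.26 and 6.46 in the Runx3 arrays and 7.07 and 7.31 in the Runx2 arrays (difference −0.83, SE 0.14, adjusted p = 0.00647). Its partner Col4a1 was at 6.88 and 7.14 in the Runx3 arrays and 7.63 and 7.62 in the Runx2 arrays (difference −0.61, SE 0.12, adjusted p = 0.0135). Col8a1 (−0.59) and the fibrillar Col3a1 (−0.42) were lower as well. The chains of type I collagen were not called: Col1a1 differed by 0.43 (adjusted p = 0.0725) and Col1a2 by 0.18. None of the lower calls, and none of the higher ones beyond Col5a1, Col18a1 and Col6a2, held without any 1 array. Col4a6 lost its call only without Runx3 replicate 1 (adjusted p = 0.0549). Col6a1 lost it without Runx3 replicate 2 (0.072) or Runx2 replicate 1, and Col4a2 without Runx3 replicate 1 (0.061) or Runx2 replicate 2. For Col4a1, Col8a1, Col5a2, Col4a5 and Col3a1 it was lost in 3 or 4 of the fits, with highest adjusted p of 0.116 to 0.248. With the 4 arrays alone, 2 of the higher and 0 of the lower calls were made in limma.

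Elastic fibre and matricellular genes also split. Of 19 measured elastic fibre genes 3 were higher and 3 lower, against 1.85% and 1.91% of all genes (median −0.02). Emilin1, an elastic fibre glycoprotein, was at 9.24 and 9.41 in the Runx3 arrays and 8.21 and 8.34 in the Runx2 arrays (difference 1.05, SE 0.15, adjusted p = 0.00182), against a vector mean of 6.14. Mfap5, a microfibril protein, differed by 0.78 (SE 0.10, adjusted p = 0.000932) and Loxl4, a lysyl oxidase, by 0.75. Fbln5, which helps elastin assemble, was at 7.58 and 7.40 in the Runx3 arrays and 8.33 and 8.35 in the Runx2 arrays (difference −0.85, SE 0.10, adjusted p = 0.00038), against a vector mean of 9.46. Ltbp3, a binding protein of latent TGF-beta, differed by −0.61 and Efemp1, another fibulin, by −0.60. All but Loxl4 held without any 1 array. Loxl4 lost its call without Runx3 replicate 2 (adjusted p = 0.118), Runx2 replicate 1 or Runx2 replicate 2. Ltbp3 was not called when its probe sets were averaged.

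Of 18 measured matricellular genes, which encode matrix proteins that signal to cells, 5 were higher and 1 lower (median 0.08). Over all genes 1.85% were higher and 1.91% lower. Ccn4 was at 7.33 and 7.60 in the Runx3 arrays and 5.88 and 5.94 in the Runx2 arrays (difference 1.55, SE 0.15, adjusted p = 9.99e-05). Ccn2, connective tissue growth factor, was at 7.73 and 7.54 in the Runx3 arrays and 6.68 and 6.75 in the Runx2 arrays (difference 0.92, SE 0.13, adjusted p = 0.00206). Thbs2, a thrombospondin, was at 7.90 and 7.89 in the Runx3 arrays and 8.89 and 9.10 in the Runx2 arrays (difference −1.10, SE 0.11, adjusted p = 0.000104), and 2 of its other probe sets were called lower too. Ccn4, Ccn2 and Thbs2 held without any 1 array. Their Runx3 and Runx2 arrays did not overlap, as at every called gene. Postn (0.67), Comp (0.62) and Ccn6 (0.39) did not hold: their highest adjusted p were 0.309 without Runx2 replicate 1 for Postn, 0.296 without Runx3 replicate 1 for Comp and 0.208 without Runx3 replicate 2 for Ccn6. Ccn6 was near the low end of the arrays, with means of 3.21 in the Runx3 and 2.82 in the Runx2 arrays. Sparc (0.18) and Fn1 (0.23), which encodes fibronectin, were not called.

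Of 31 measured metalloproteinases and their inhibitors 2 were higher and 3 lower, against 1.85% and 1.91% of all genes (median −0.09). Besides Timp4, the aggrecan-cleaving protease gene Adamts4 was at 6.72 and 6.63 in the Runx3 arrays and 5.61 and 5.47 in the Runx2 arrays (difference 1.14, SE 0.14, adjusted p = 0.00058). Its relative Adamts5 went the opposite way, at 9.39 and 9.36 in the Runx3 arrays and 9.98 and 10.05 in the Runx2 arrays (difference −0.64, SE 0.08, adjusted p = 0.000866). Both held without any 1 array. The inhibitor gene Timp2 differed by −0.42 and Adam19 by −0.34, calls that were lost in 3 and 4 of the fits without 1 array (highest adjusted p 0.0903, without Runx2 replicate 1, and 0.202, without Runx3 replicate 1). Timp1 (0.28, adjusted p = 0.0907) and Mmp2 (−0.04) were not called. Among 19 measured small leucine-rich and large proteoglycans only Vcan, versican, was called, lower by a difference of −0.67 (adjusted p = 0.00936), a call lost without Runx3 replicate 2 (0.0774), without Runx2 replicate 2 and when probe sets were averaged.

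**Figure D4:**
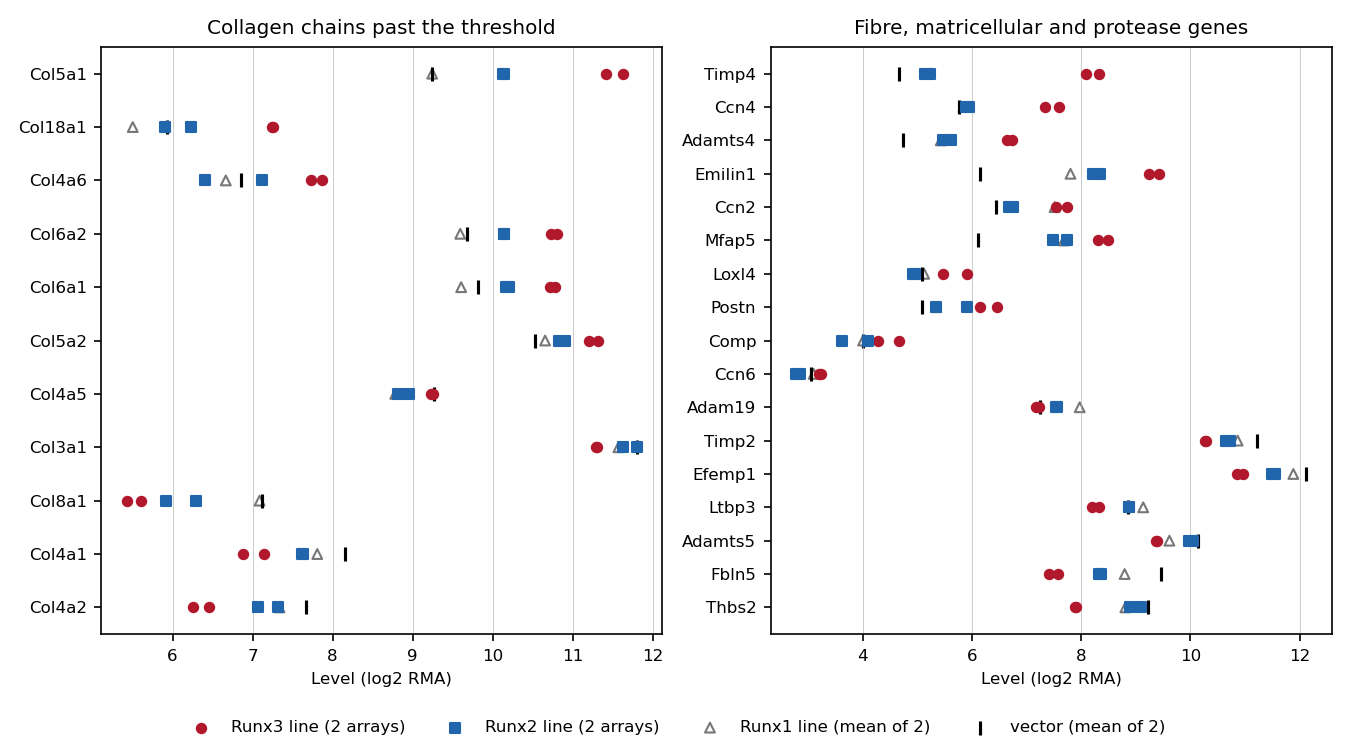
Level (log2 RMA) in each Runx3 array (red circles) and each Runx2 array (blue squares) of the 11 collagen chains (left) past the threshold and of the 17 elastic fibre, matricellular, metalloproteinase and inhibitor genes past it (right), with the means of 2 Runx1 arrays (triangles) and 2 vector arrays (bars). Col5a1 and Timp4 head the genes higher in the Runx3 line, and Col4a2 and Thbs2 close the panels as the lowest.

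Pla2g4a, Ptgs2 and Ptgis of prostaglandin synthesis were lower in Runx3 cells, while other synthase genes were not called. Of 18 measured members of the prostaglandin list 4 were lower and 1 higher, against 1.91% and 1.85% of all genes (median −0.15). The pathway starts with Pla2g4a, the phospholipase that frees arachidonic acid, at 8.15 and 8.36 in the Runx3 arrays and 8.80 and 8.84 in the Runx2 arrays (difference −0.57, SE 0.09, adjusted p = 0.00433). Ptgs2, the inducible cyclooxygenase, was at 5.24 and 4.91 in the Runx3 arrays and 6.16 and 6.63 in the Runx2 arrays (difference −1.31, SE 0.24, adjusted p = 0.00866). Ptgis, prostacyclin synthase, was at 6.79 and 6.82 in the Runx3 arrays and 7.52 and 7.61 in the Runx2 arrays (difference −0.76, SE 0.09, adjusted p = 0.000521). The synthase genes not called were Ptges2 (0.43, adjusted p = 0.118), Ptgds (0.07), Tbxas1 (−0.08), Hpgds (−0.13) and Ptges (−0.13, adjusted p = 0.687). Receptors moved in both directions. Ptgfr, for prostaglandin F, differed by −0.62 (adjusted p = 0.0242), and Ptger4, for prostaglandin E, was at 7.71 and 7.57 in the Runx3 arrays and 6.67 and 6.67 in the Runx2 arrays (difference 0.97, SE 0.18, adjusted p = 0.00866). Pla2g4a and Ptgis held without any 1 array. Ptgs2 was lost without Runx3 replicate 2 (adjusted p = 0.0905) or Runx2 replicate 2, Ptgfr without Runx3 replicate 2 (0.203) or Runx2 replicate 1, and Ptger4 without Runx3 replicate 1 (0.0665) or Runx2 replicate 1.

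Among genes of signalling through cyclic nucleotides and G proteins the calls were falls only. Of 35 measured members of that list 6 were lower and none higher, against 1.91% and 1.85% of all genes (median −0.04). The phosphodiesterase Pde4b, which degrades cyclic AMP, was at 5.50 and 5.55 in the Runx3 arrays and 6.64 and 6.85 in the Runx2 arrays (difference −1.22, SE 0.10, adjusted p = 3.56e-05). Pde8b was at 4.78 and 4.41 in the Runx3 arrays and 5.64 and 5.74 in the Runx2 arrays (difference −1.09, SE 0.13, adjusted p = 0.000377), against a vector mean of 7.26. Adcy7, an adenylyl cyclase that makes cyclic AMP, was at 4.84 and 4.66 in the Runx3 arrays and 5.83 and 5.79 in the Runx2 arrays (difference −1.06, SE 0.10, adjusted p = 0.000104). Adcy7 was thus lower together with Pde4b and Pde8b, and these 3 calls held without any 1 array. The other adenylyl cyclase genes of the list, Adcy3 (−0.07), Adcy6 (−0.04) and Adcy9 (0.01), were not called. Nor was the phosphodiesterase gene Pde4a, which differed by 0.45 (adjusted p = 0.0641). Rgs2 (−0.72), Rgs3 (−0.54) and Pde7a (−0.51) did not hold, with highest adjusted p of 0.068 without Runx2 replicate 1 for Rgs2 and, without Runx3 replicate 1, 0.132 for Rgs3 and 0.246 for Pde7a. The regulatory subunit Prkar2b was not called (0.40, adjusted p = 0.0665).

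Of 31 measured sphingolipid and lipid phosphate genes 3 were higher and 5 lower, against 1.85% and 1.91% of all genes (median −0.02). Phosphatases that act on lipid phosphates outside the cell split: Plpp1 was at 9.93 and 9.98 in the Runx3 arrays and 9.26 and 9.29 in the Runx2 arrays (difference 0.68, SE 0.08, adjusted p = 0.000387), and Plpp3 was at 6.38 and 6.15 in the Runx3 arrays and 7.17 and 7.30 in the Runx2 arrays (difference −0.97, SE 0.11, adjusted p = 0.000388). Sgpp1, which dephosphorylates sphingosine phosphate, differed by −0.64 (adjusted p = 0.0022). These 3 held without any 1 array. Sphk1, the kinase that makes sphingosine phosphate, differed by −0.72 and the ceramide synthase gene Cers6 by 0.57, and both lost the call in 3 fits (highest adjusted p 0.0736 without Runx3 replicate 2 and 0.0996 without Runx2 replicate 1). St3gal5 (0.44), Smpd1 (−0.52) and Asah1 (−0.36) lost it in 3 or 4 fits (highest adjusted p 0.121, 0.315 and 0.187).

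Growth factor genes differed at 7 of 37 measured members, 2 higher and 5 lower, against 1.85% and 1.91% of all genes (median −0.09). Igfbp4, which binds insulin-like growth factors, was at 9.81 and 9.85 in the Runx3 arrays and 8.82 and 8.64 in the Runx2 arrays (difference 1.10, SE 0.10, adjusted p = 8.67e-05). All 5 of its other probe sets were called higher too, by 0.94 to 1.33. At this gene the vector mean was 9.49, between the lines. Pdgfra, the receptor for platelet-derived growth factor, was at 9.80 and 9.71 in the Runx3 arrays and 10.53 and 10.64 in the Runx2 arrays (difference −0.83, SE 0.10, adjusted p = 0.000515). Both held without any 1 array. Igf2r (−0.83), Vegfd (−0.66), Irs1 (−0.49), Bdnf (−0.44) and Gdnf (0.56) did not. Igf2r lost its call only without Runx3 replicate 1 (adjusted p = 0.0565), Vegfd in 3 fits (highest 0.146, without Runx3 replicate 1), and Irs1, Bdnf and Gdnf in all 4 (highest 0.0908, 0.131 and 0.109).

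Receptors, feedback regulators and immediate early factors of growth signalling were mostly lower where they were called. Of 12 measured EGF ligands and receptors 2 were lower and none higher, against 1.91% and 1.85% of all genes. Erbb3 was at 5.47 and 5.51 in the Runx3 arrays and 6.32 and 6.37 in the Runx2 arrays (difference −0.86, SE 0.10, adjusted p = 0.000307). The Erbb3 call held without any 1 array. Ereg, epiregulin, differed by −0.50, with means of 2.84 in the Runx3 and 3.33 in the Runx2 arrays, near the low end of the arrays. Of 19 measured ERK feedback genes 3 were lower and none higher (median −0.25): Errfi1 (−0.89), Spred2 (−0.62) and Dusp1 (−0.60). Of 25 measured AP-1 and immediate early genes 1 was higher and 3 lower (median −0.05). Junb was at 7.24 and 7.39 in the Runx3 arrays and 6.29 and 6.20 in the Runx2 arrays (difference 1.07, SE 0.19, adjusted p = 0.00698), while Maff (−0.62), Fosl2 (−0.56) and Fosl1 (−0.48) were lower. Egr1 (−0.56, adjusted p = 0.302) and Spry2 (−0.57, adjusted p = 0.0769) were not called. Junb lost its call without Runx3 replicate 2 (adjusted p = 0.0691). Ereg, Dusp1 and Fosl1 lost theirs in all 4 fits without 1 array (highest adjusted p 0.137, 0.104 and 0.199), and Errfi1, Spred2, Maff and Fosl2 in 3 of them (highest 0.131, 0.0571, 0.254 and 0.0634).

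Id and Hes factors act against differentiation factors. Their list, which also held Notch receptors and ligands, gave 1 rise and 1 fall among 15 measured members (median 0.08). Id1 was at 9.40 and 9.28 in the Runx3 arrays and 8.25 and 8.11 in the Runx2 arrays (difference 1.16, SE 0.12, adjusted p = 0.000207), a call that held without any 1 array. Its relative Id2 was lower (difference −0.47, adjusted p = 0.0283), a call lost in each fit without 1 array (highest 0.163). In the TGF-beta and BMP list 2 of 37 were higher and 2 lower (median 0.07), against 1.85% and 1.91% of all genes. The ligand gene Tgfb1 was at 6.91 and 7.15 in the Runx3 arrays and 6.07 and 6.12 in the Runx2 arrays (difference 0.94, SE 0.13, adjusted p = 0.00164). The co-receptor gene Tgfbr3 was at 8.53 and 8.69 in the Runx3 arrays and 9.26 and 9.34 in the Runx2 arrays (difference −0.69, SE 0.09, adjusted p = 0.00109). Both held without any 1 array, and the signalling receptor Tgfbr2 was not called (0.40, adjusted p = 0.0521). The signal transducer Smad3 (−0.51) and the BMP antagonist Nog (0.38) lost their calls in 3 and 4 of the fits (highest adjusted p 0.0917, without Runx2 replicate 2, and 0.264, without Runx2 replicate 1). Nog was near the low end of the arrays, with means of 3.47 in the Runx3 and 3.09 in the Runx2 arrays. In the Wnt list 1 of 39, Fzd7, was higher and 1, Tcf7l1 (−0.34), was lower, which is near the share over all genes. Tcf7l1 was called in no fit without 1 array (highest adjusted p 0.183).

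Of 25 measured genes of bone and cartilage, for which Runx2 is best known, 3 were higher and none lower (median 0.05), against 1.85% higher and 1.91% lower over all genes. Of the 3, only Mgp held without any 1 array. Mgp, an inhibitor of calcification, was at 9.21 and 8.93 in the Runx3 arrays and 7.66 and 7.65 in the Runx2 arrays (difference 1.41, SE 0.13, adjusted p = 8.67e-05). The vector mean for Mgp was 8.34, between the lines. Alpl, alkaline phosphatase, was at 4.28 and 4.05 in the Runx3 arrays and 3.66 and 3.76 in the Runx2 arrays (difference 0.46, adjusted p = 0.0404), near the low end of the arrays, and lost its call in each fit without 1 array (highest 0.254, without Runx3 replicate 1). Comp is given with the matricellular genes.

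Contractile genes were listed together with the factors SRF and YAP, their partners and their known targets. Of 30 measured 4 were higher and 2 lower, against 1.85% and 1.91% of all genes (median 0.02). Tpm1, a tropomyosin, was at 11.07 and 11.10 in the Runx3 arrays and 10.25 and 10.20 in the Runx2 arrays (difference 0.86, SE 0.08, adjusted p = 9.99e-05), and held without any 1 array. Tagln (0.66), the coactivator gene Wwtr1 (0.52), a relative of YAP, and Acta2 (0.35) were higher and Fhl2 (−0.66) and Ankrd1 (−0.61) lower. Tagln lost its call only without Runx2 replicate 1 (adjusted p = 0.0515), Fhl2 without Runx3 replicate 1 (0.0665) or Runx2 replicate 2, Ankrd1 without Runx3 replicate 2 (0.122) or Runx2 replicate 2, and Wwtr1 and Acta2 in 3 and 4 fits (highest 0.137 and 0.22). Integrin, syndecan and focal adhesion genes gave 2 higher of 31 measured, Itgb5 (0.57) and Sdc1 (0.53). Itgb5 lost its call in each fit without 1 array (highest 0.113) and Sdc1 without Runx3 replicate 2 (0.075) or Runx2 replicate 1.

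Both a repressor of epithelial genes and some epithelial genes were higher in the Runx3 line. Snai1, which is known to repress Cdh1, was at 8.78 and 8.88 in the Runx3 arrays and 7.66 and 7.48 in the Runx2 arrays (difference 1.26, SE 0.20, adjusted p = 0.00357). Cdh1, E-cadherin, was at 4.42 and 4.01 in the Runx3 arrays and 3.24 and 3.17 in the Runx2 arrays (difference 1.01, SE 0.15, adjusted p = 0.00189). These were the 2 of 20 measured cadherins and transition factors that were called, against 3.76% of all genes. Both held without any 1 array. With only the 4 arrays in the fit Cdh1 was not called, and its Runx2 levels were near the low end of the arrays. Of 12 measured epithelial markers Krt8 and Cdh1 were higher and none lower. Krt18, the usual partner of Krt8, was at 3.66 and 3.63 in the Runx3 arrays and 3.54 and 3.47 in the Runx2 arrays (difference 0.14, adjusted p = 0.528), and Epcam was at 5.00 and 5.00 in the Runx3 arrays and 5.11 and 4.99 in the Runx2 arrays. The log2 levels of the 12 summed to 50.0 to 50.7 in the Runx3 arrays and 47.2 to 48.4 in the Runx2 arrays. Krt8 and Cdh1 carried that gap, since the other members differed by −0.23 (Cldn4) to 0.14 (Krt18) and none of them was called. In bulk RNA, more cells of a type and more RNA per cell cannot be told apart.

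Of 23 measured targets and sensors of hypoxia-inducible factors 4 were lower and 1 higher, against 1.91% and 1.85% of all genes (median −0.12). Egln3 held without any 1 array. Car9 (−0.87), Ero1a (−0.66) and Vegfa (−0.58) were lower and Car12 (0.37) higher, and these lost their calls in 3 or 4 of the fits without 1 array, with highest adjusted p of 0.323, 0.143, 0.19 and 0.215. Of 19 measured glycolysis genes 1 was higher: Hk2, a hexokinase, was at 8.13 and 8.20 in the Runx3 arrays and 7.41 and 7.20 in the Runx2 arrays (difference 0.86, SE 0.14, adjusted p = 0.00567), a call lost without Runx3 replicate 2 (0.0542). Pgk1 (−0.15) and Ldha (0.00) were not called. Of 32 genes of the ATF4 and unfolded protein response 3 were lower (median −0.07). Trib3, a pseudokinase, was at 6.78 and 6.97 in the Runx3 arrays and 7.76 and 8.08 in the Runx2 arrays (difference −1.04, SE 0.15, adjusted p = 0.00206), and held without any 1 array, but not when its probe sets were averaged. Chac1, which degrades glutathione, was at 6.07 and 6.38 in the Runx3 arrays and 7.21 and 7.95 in the Runx2 arrays. It lost its call without Runx3 replicate 1 (adjusted p = 0.061). Ddit3 differed by −0.85 and lost its call without Runx3 replicate 2 (0.094). The endoplasmic reticulum chaperone Hspa5 did not pass the test (−0.01, 95% interval −0.22 to 0.19).

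Calls among immune genes are set against 3.76% of all genes called in either direction. Among 37 measured chemokines and receptors Ccr7 and Ccl2 were higher and Ackr3 was lower (median −0.02), and all 3 held without any 1 array. Ccl2, which attracts monocytes, was at 8.74 and 8.67 in the Runx3 arrays and 7.73 and 7.85 in the Runx2 arrays (difference 0.92, SE 0.12, adjusted p = 0.000994), and its neighbour in the family Ccl7 was not called (0.49, adjusted p = 0.105). Of 24 acute-phase genes and their signal 3 were lower (median −0.02): Hp, the oncostatin M receptor gene Osmr (−0.58) and Saa2 (−0.53). Osmr lost its call in each fit without 1 array (highest 0.169) and Saa2 without Runx3 replicate 2 (0.0925) or Runx2 replicate 1. Of 7 measured members of the Ifitm family, interferon-induced membrane proteins, 2 were higher (median 0.23). Ifitm1 was at 8.38 and 7.72 in the Runx3 arrays and 6.77 and 7.14 in the Runx2 arrays (difference 1.09, SE 0.20, adjusted p = 0.00819), with a vector mean of 3.66, and Ifitm3 differed by 0.48. Both lost their calls without Runx3 replicate 1 or Runx2 replicate 1 (highest 0.0836 and 0.0674). Of 28 other interferon-stimulated genes none was called in limma. Of 9 measured genes tied to Runx3 in T cells only Ccr7 was called, and of 28 tied to Runx factors in blood cells only Alox12, lower by a difference of −0.40, in no fit without 1 array (highest 0.201).

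Of 37 measured S phase and mitosis genes 7 were lower and 1 higher, against 1.91% and 1.85% of all genes (median −0.17). Mki67, the proliferation antigen, was at 8.40 and 8.56 in the Runx3 arrays and 8.99 and 9.09 in the Runx2 arrays (difference −0.56, SE 0.11, adjusted p = 0.0126). The mitotic genes Bub1, Plk1, Aurka, Kif11, Aurkb and Cdc20 differed by −0.45 to −0.32, and Ccne2 by 0.63. None of the 8 held without any 1 array: the number lower was 0 to 3 in those fits, Mki67 reached 0.103 without Runx3 replicate 1, and with only the 4 arrays 0 of the 8 were called in limma. Pcna (0.05) and Cdk1 (−0.23) were not called. Of 23 D cyclins, CDK inhibitors and p53 genes 3 were higher and 3 lower (median −0.01). Mycn was at 12.96 and 13.04 in the Runx3 arrays and 12.32 and 12.39 in the Runx2 arrays (difference 0.64, SE 0.09, adjusted p = 0.00146), and Cdkn2d, a CDK inhibitor, was at 6.03 and 5.99 in the Runx3 arrays and 6.61 and 6.68 in the Runx2 arrays (difference −0.63, SE 0.08, adjusted p = 0.000793). Both held without any 1 array. Gadd45g (0.89), Cdkn1a (0.44), Cdkn2c (−0.54) and Trp53inp1 (−0.51) did not, with highest adjusted p of 0.211, 0.184, 0.0515 and 0.167, each without Runx3 replicate 2. Of 31 genes of apoptosis Bcl2 was higher (0.61) and Bid lower (−0.68), with 0.235 without Runx3 replicate 2 and 0.0565 without Runx3 replicate 1.

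Of 27 protocadherins, adhesion molecules of the immunoglobulin type and other surface proteins 5 were lower and 1 higher, against 1.91% and 1.85% of all genes (median −0.09). Cd34, a sialomucin of progenitor cells, was at 7.78 and 7.57 in the Runx3 arrays and 8.61 and 8.75 in the Runx2 arrays (difference −1.0, SE 0.10, adjusted p = 0.000159), and held without any 1 array. Nectin2 (−0.65), Thy1 (−0.64), Pcdh19 (−0.50), Pcdh18 (−0.41) and Ncam1 (0.54) did not hold (highest adjusted p 0.129, 0.168, 0.0773, 0.226 and 0.219). Of 20 retinoid genes 2 were lower (median 0.02). Crabp1, which binds retinoic acid in the cell, was at 9.33 and 9.16 in the Runx3 arrays and 10.28 and 10.36 in the Runx2 arrays (difference −1.08, SE 0.10, adjusted p = 0.000104), and held without any 1 array, and Rxra differed by −0.67 (highest 0.166, without Runx3 replicate 1). Of 21 C/EBP, KLF and adipogenic genes 4 were lower (median −0.17): Zfp521 (−0.77), which held without any 1 array but not when its probe sets were averaged, Cebpd (−0.61), Dlk1 (−0.48) and Cebpb (−0.45), which did not hold (highest 0.0971, 0.141 and 0.179, each without Runx3 replicate 2). Of 43 axon guidance genes Nrp2 (0.77) was higher and Plxna1 (−0.76), Efnb2 (−0.75) and Sema3a (−0.59) lower, with highest adjusted p of 0.074, 0.0565, 0.0951 and 0.0616 without 1 array. In the lists of Nrf2 and glutathione (22), complement (16) and aldo-keto reductase (16) genes, 2, 1 and 0 were lower and none higher: these were Mgst1 (−0.73), Gstm1 (−0.40) and C1s1 (−0.62), with highest adjusted p of 0.0711, 0.201 and 0.118.

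**Figure D5:**
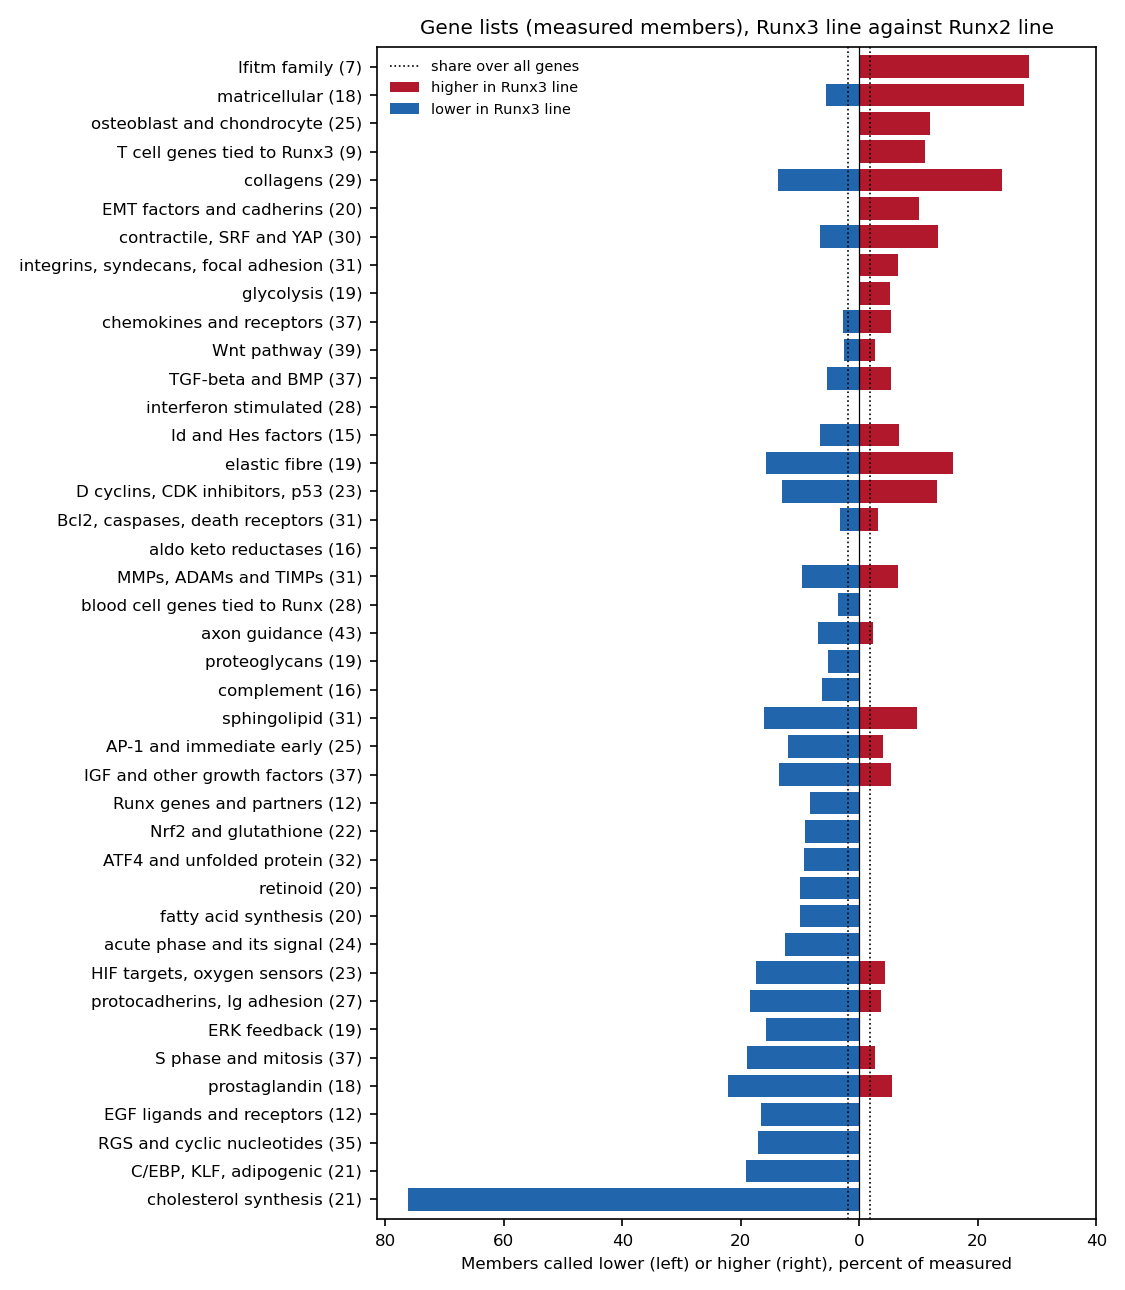
Share of measured members called lower (blue, left of 0) and higher (red, right of 0) in the Runx3 line against the Runx2 line, in percent, for 41 gene lists with the number measured in brackets. Dotted lines mark the shares over all genes, 1.91% lower and 1.85% higher. Cholesterol synthesis has the longest bar, with 16 of 21 members lower.

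Several markers of fibroblasts, though not all, were bright in both lines. Col1a2 was at 13.25 and 13.35 in the Runx3 arrays and 13.12 and 13.11 in the Runx2 arrays, and Vim was at 12.92 and 12.94 in the Runx3 arrays and 12.97 and 12.96 in the Runx2 arrays. Of the 14 measured, Postn was higher and Col3a1, Thy1 and Pdgfra were lower, against 1.85% higher and 1.91% lower over all genes. Among these calls only that of Pdgfra held in every fit that left out an array. The log2 levels of the 14 summed to 131.3 to 131.4 in the Runx3 arrays and 131.5 to 133.4 in the Runx2 arrays. Dcn (4.49 and 4.08 in the Runx3 arrays, 4.24 and 4.53 in the Runx2 arrays) and Lum were near the low end of the arrays in both. Among markers of macrophages (10 measured), endothelium (9), skeletal muscle (8), fat cells (5) and neural cells (6) none was called in limma, and the highest level among the 4 arrays was 6.10.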

How the data were processed

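RNA of 15 NIH3T3 samples was hybridised to 1-colour Affymetrix mouse arrays. The deposited log2 values were made by the authors, per the labels' protocols, from GCOS raw data with RMA in the Bioconductor module affy of the FunAlyse pipeline. Versions and the probe set definition are not stated in the labels or files used here. RMA shrinks differences of dim probe sets, and precision is limited by the number of arrays.

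Of 45101 probe sets, 34945 had a single symbol in the platform annotation, 932 had several, 9160 had none and 64 were controls. The brightest probe set stood for each of 18193 genes. One coefficient per group was fitted over all 15 arrays with limma 3.58.1 in R 4.3.3 (7 residual and 5.65 prior degrees of freedom). Runx3 minus Runx2 was tested with eBayes, two-sided, with Benjamini-Hochberg adjustment over all genes. All adjusted p-values given are limma's. On simulated data this fit called 53.7% of changes of 0.5, 92.5% of 1 and 100% of 2 log2 units among 18193 genes. It also called 10 of 17993 unchanged genes. The simulated noise was independent between arrays and genes, and only the Runx3 group was changed. Effects shared by the arrays of a culture or by many genes were therefore not covered.

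The members and gene lists were chosen with earlier results of these data known, so a list's count is not independent evidence. Named genes were the 15 largest called rises and falls whose arrays did not overlap, leaving out clone names, and from each of 41 lists and 7 marker lists up to 6 called members by size and up to 2 others by mean level. Other called members, and further markers, were added to complete the account of a list after their values were seen. Promoter sequences are RefSeq's, build GRCm38.p6. Leaving out arrays, other summaries, scalings, filters and fits were tried as alternatives.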

Additional observations from a re-analysis of the deposited data

Results flagged for a closer look

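The 9160 probe sets without a gene symbol entered no comparison by gene. In the same limma fit over all probe sets 54 of them were called, 19 higher and 35 lower in the Runx3 line, and 4 of the higher and 2 of the lower ones differed at least 2-fold. The share called over all 45101 probe sets in that fit is not given here, so these counts are not read as few or many. Probe set 1416715_at was at 6.20 and 5.91 in the Runx3 arrays and at 4.61 and 4.66 in the Runx2 arrays (difference 1.42), against a vector mean of 5.05. Probe set 1422179_at was at 5.02 and 5.68 in the Runx3 arrays and at 3.95 and 4.01 in the Runx2 arrays (difference 1.37), against a vector mean of 3.88. The 2 largest falls were at 1426034_a_at and 1425389_a_at. The first was at 3.91 and 3.83 in the Runx3 arrays and at 8.43 and 8.95 in the Runx2 arrays (difference −4.82), with a vector mean of 3.88. The second was at 3.29 and 3.40 in the Runx3 arrays and at 7.71 and 7.52 in the Runx2 arrays (difference −4.27), with a vector mean of 3.40. At both, the Runx3 arrays lay near the vector mean and the Runx2 arrays far above it.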

How the results depend on the processing

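Against 684 calls, 337 higher and 347 lower, fitting only the 4 arrays of the 2 lines left 86, of which 48 were higher and 38 lower; that fit has 2 residual degrees of freedom in place of 7. An intensity trend in eBayes gave 512 higher among 1001. Leaving out 1 of the 4 arrays gave 251 to 448 calls, 108 to 239 higher and 129 to 209 lower, with the lone array of its line assumed to vary like the other groups. Without Runx2 replicate 1, 35.4% of calls were higher, against 49.3%; the cause was not tested. The number of called genes at least 2-fold apart was 46 under the mean over probe sets and 52 to 69 elsewhere, against 64. Mean over probe sets (602), a filter on dim genes (951), median centring (632), repeated quantile normalization (707), the 11 arrays without vector (516) and a robust prior (652) kept the total within 1.5 times, and no named gene reversed. The replicate numbers were not taken as pairs: deviations of replicate 1 correlated at −0.052 between the Runx3 and Runx2 lines, and at −0.158 to 0.254 over all pairs of groups. With the replicate block over 14 arrays 601 genes were called, 301 higher and 300 lower.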
